A study of Homo sapiens with 23 samples.

Results

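Bone morphogenetic protein (BMP) and TGF-beta signalling genes were examined in the RNA-seq of thalamus organoids (ThOs), free-floating cultures in which human stem cells are guided to form thalamus-like tissue. The members were all genes whose symbol begins with the name of a ligand, receptor, co-receptor, antagonist, SMAD or SMURF of these pathways, together with ID1 to ID4, and 35 of the 9497 genes listed in every library fitted this naming rule (0.369%). They comprised 3 BMP-class ligands (BMP7, GDF7 and GDF10), 1 TGF-beta or activin-class ligand (GDF11), 4 type I receptors (ACVR1, ACVR1B, BMPR1A and TGFBR1), 3 type II receptors (ACVR2A, ACVR2B and BMPR2) and 4 genes classed as co-receptors (BAMBI, NEO1, RGMA and RGMB). A further 6 were extracellular antagonists or modulators (FSTL1, FSTL3, FSTL4, FSTL5, NOG and TWSG1), 6 were SMAD1, SMAD2, SMAD3, SMAD4, SMAD5 and SMAD9, 2 were SMURF1 and SMURF2, and 4 were the ID genes. BMP2K and TGFBRAP1 fitted the naming rule without being core genes of the pathway. The rule used names alone and no measured value.

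The libraries labelled WT were made from unedited H1 human embryonic stem cells, and those labelled KO from H1 after CRISPR/Cas9 targeting of c-JUN, which encodes an AP-1 subunit. The libraries labelled OE, whose titles read KO+cJun, came from the knockout with c-JUN switched on again by a doxycycline-inducible system. ThOs of all 3 genotypes were harvested at days 25 and 30, with 2 libraries per group, 12 in all, and every library was made from 3 pooled ThOs. The design text names 2 knockout lines, and the labels do not say which line gave each library or whether the libraries came from separate differentiations, so the p-values measure the spread between these libraries. The study's methods give 1 culture scheme for ThOs, which acts on the pathway itself: inhibitors of BMP and of TGF-beta or activin type I receptors (LDN-193189 and SB431542) at the start, then a patterning medium with BMP7 protein and the MEK inhibitor PD325901, then a differentiation medium. Doxycycline was added to the medium to induce c-JUN, and the methods do not say whether WT or KO ThOs received it. In OE against KO, c-JUN cannot be told apart from doxycycline or the inducible construct.

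BMPs and TGF-beta family ligands bind pairs of type I and type II receptor kinases, which phosphorylate receptor SMADs that enter the nucleus with SMAD4. BMP-class ligands act through SMAD1, SMAD5 and SMAD9, TGF-beta and activin-class ligands through SMAD2 and SMAD3, and secreted antagonists such as noggin hold ligands away from the receptors. In the embryonic brain the roof plate secretes BMPs that pattern the dorsal midline, and ID genes are classical direct targets of BMP-SMAD signalling. In bulk tissue, fewer cells expressing a gene and less RNA per cell cannot be told apart.

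The values were normalized whole numbers from 11 to 9910 with a median of 106 in every library, set by the authors, and the read depth behind them is unknown. They are not per unit of gene length, so levels were compared between libraries and not between genes. The tables hold genes above 10 in every library, so a ligand or receptor lost in any group would not be listed. JUN (ENSG00000177606, GRCh38 chromosome 1, 58776845 to 58784048), the targeted gene, had values of 139 and 153 in WT, 353 and 196 in KO and 224 and 212 in OE at day 25. The day 30 values were 128 and 162 in WT, 222 and 248 in KO and 362 and 202 in OE. The 4 KO libraries lay above the 4 WT libraries, against the label (exact two-sided permutation test, p = 0.0286, the smallest that 4 against 4 allows, and 0.0571 with any 1 library left out). By limma the log2 fold change of JUN for KO against WT over both days was 0.77 (SE 0.229, adjusted p = 0.197), which did not pass. Of all genes, 2.74% had all KO libraries above all WT libraries. The 4 OE libraries (202 to 362) also lay above all WT libraries and overlapped KO, with a log2 fold change of -0.03 for OE against KO over both days (SE 0.229, adjusted p = 0.949 by limma). JUN RNA therefore did not separate OE from KO, and KO and OE are used as labels throughout. By western blot the study reported no c-JUN protein in its KO cell lines and c-JUN protein after induction with doxycycline. By RT-qPCR it reported no c-JUN mRNA in KO neural progenitor cultures and cerebral organoids. The values here are of RNA, and protein was not measured in these libraries. Replicates differed more under the KO label than elsewhere: Spearman's rho across genes was 0.821 (day 25) and 0.769 (day 30) between KO replicates and at least 0.936 in the other groups, and KO day 30 replicate 2 stood farthest apart, where the median rho to the rest was 0.745. That median was 0.854 and 0.830 for KO day 25 replicates 1 and 2, and 0.929 for KO day 30 replicate 1. On the log2(value + 1) scale, 6 of the 35 members (17.1%, against 17.4% of all genes) differed at least 2-fold between the KO replicates at day 25. At day 30 it was 7 (20%, against 21.5%). In WT 1 member did at either day (2.86%), against 4.454% of all genes at day 25 and 1.748% at day 30. In OE 4 did at day 25 (11.4%, against 2.148%) and 5 at day 30 (14.3%, against 3.233%). Between OE replicates, members therefore differed 2-fold more often than genes at large. Of 15 listed thalamus markers 6 were in the tables, TCF7L2 among them, while GBX2 and OLIG3 were not listed.

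Calls required an adjusted p below 0.05 together with a difference of 2-fold or more, from limma fitted to log2(value + 1) over all 12 libraries with Benjamini-Hochberg adjustment over the 9497 genes. No member was called between KO and WT at day 25, where 0.0105% of all genes were called, at day 30 (0%) or averaged over the days (0.0211%). At an unadjusted p under 0.05 with a 2-fold change, 1 member, RGMB, passed at day 25 (5.31% of all genes), 0 passed at day 30 (2.94%) and RGMB again was the 1 over both days (2.08%). Between OE and KO, RGMB was called at day 25 (0.274% of all genes), no member at day 30 (0.0842%), and RGMB, FSTL1 and NOG over both days (2.22%), 1 of them higher (1.05%) and 2 lower (1.17%). The unadjusted rule passed 7 of 35 members at day 25, 20% against 8.57% of all genes, 2 at day 30 (5.71% against 5.38%) and 7 over both days (20% against 4.98%). At day 25 RGMB and RGMA passed as higher in OE and BAMBI, ID1, GDF7, FSTL1 and NOG as lower, at day 30 NOG and GDF10 as lower, and over both days RGMB as higher and BAMBI, ID1, GDF7, FSTL1, NOG and GDF10 as lower. Between OE and WT no member was called at day 25 (0% of all genes), day 30 (0.0316%) or over both days (0.158%), and the unadjusted rule passed FSTL1 and GDF10 at day 25 (1.57%) and GDF10 alone at day 30 (1.44%) and over both days (1.19%). The KO libraries enter both the KO against WT and the OE against KO comparison, so the directions of the 2 are not independent. With 2 libraries per group, separation of 2 genotypes within 1 day was common. KO lay wholly above WT at day 25 in 1836 of the 9497 genes and wholly below in 2023. OE lay wholly above KO at that day in 2326, wholly below KO in 2126 and wholly below WT in 1864. In the same order, the counts at day 30 were 1570, 1650, 1774, 1761 and 2074.

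**Figure D1:**
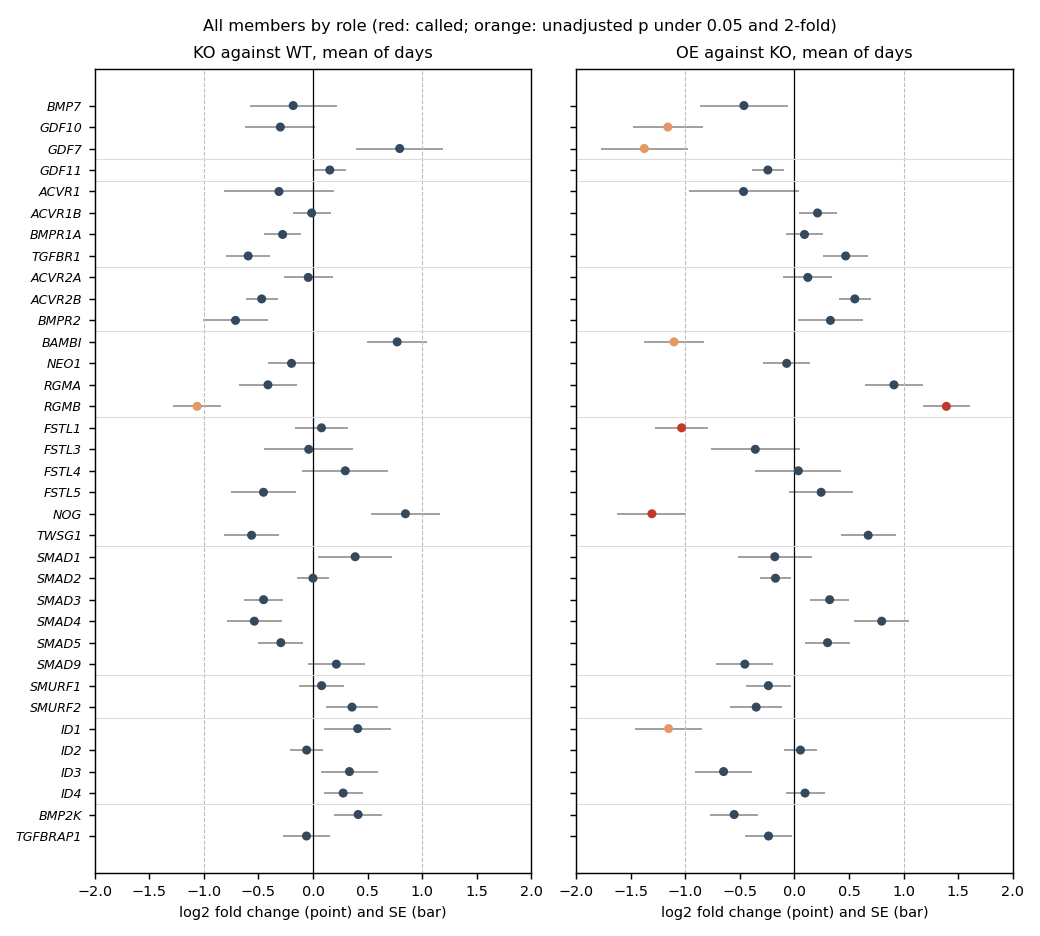
Log2 fold change (point) with its SE (bar) of each of the 35 members, ordered by role, for KO against WT (left) and OE against KO (right), each averaged over days 25 and 30; dashed lines mark 2-fold. RGMB, FSTL1 and NOG are the called members on the right (red), none is called on the left, and orange marks members past the unadjusted rule.

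The members did not move as 1 group. The median log2 fold change over the 35 members was -0.04 for KO against WT over both days and -0.17 for OE against KO, beside -0.02 and 0.01 over all genes. For KO against WT 14 members lay above 0 (47.8% of all genes) and for OE against KO 16 did (51.3%), where the values ran from -1.38 (GDF7) to 1.39 (RGMB). The plot of log2 fold changes by role shows this spread, and for OE against KO every member beyond 2-fold was a ligand, a co-receptor, an antagonist or ID1.

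The sequences before the start of RGMB and FSTL1, both called between OE and KO, and of BAMBI, which lay just outside the threshold, are shown because c-JUN binds DNA as part of AP-1 and BMP-SMADs recognize GC-rich boxes. Each is the 250 bases before the gene start in RefSeq (GRCh38.p14), read 5′ to 3′ on the strand of the gene, from chr5:98768382-98768631 (plus strand), chr3:120450993-120451242 (minus strand) and chr10:28677271-28677520 (plus strand). Capitals mark matches to the AP-1 letters TGANTCA in RGMB and to the BMP GC box letters GGCGCC in FSTL1 and BAMBI.
RGMB: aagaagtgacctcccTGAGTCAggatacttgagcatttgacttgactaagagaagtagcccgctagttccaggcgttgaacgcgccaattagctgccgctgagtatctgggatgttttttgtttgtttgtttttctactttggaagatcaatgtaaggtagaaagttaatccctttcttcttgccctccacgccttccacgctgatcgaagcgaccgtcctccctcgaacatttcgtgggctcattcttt
FSTL1: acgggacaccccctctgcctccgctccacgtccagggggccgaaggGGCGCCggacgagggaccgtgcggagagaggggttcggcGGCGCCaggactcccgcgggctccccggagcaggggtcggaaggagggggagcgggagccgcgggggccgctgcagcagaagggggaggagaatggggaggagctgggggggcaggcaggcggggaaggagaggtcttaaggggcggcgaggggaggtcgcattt
BAMBI: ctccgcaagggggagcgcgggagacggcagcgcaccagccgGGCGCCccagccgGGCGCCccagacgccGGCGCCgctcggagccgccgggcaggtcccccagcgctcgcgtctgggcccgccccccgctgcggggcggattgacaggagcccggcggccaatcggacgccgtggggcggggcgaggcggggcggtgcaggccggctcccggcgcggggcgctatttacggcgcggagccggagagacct
The RGMB window holds 1 AP-1 match, TGAGTCA at chr5:98768397-98768403, with its first base 235 bases before the start. The FSTL1 window holds 2 GC boxes, 204 and 165 bases before the start, and the BAMBI window holds 3, at 209, 196 and 181 bases.

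RGMB and RGMA encode membrane-anchored repulsive guidance molecules, which act as BMP co-receptors and as ligands of neogenin (NEO1). RGMB (ENSG00000174136, chromosome 5, 98768650 to 98798643) had values of 157 and 274 in WT, 64 and 84 in KO and 255 and 345 in OE at day 25. At day 30 it had values of 255 and 294 in WT, 176 and 176 in KO and 248 and 370 in OE. All 4 KO libraries lay below all 4 OE libraries, and KO lay below WT within each day, although WT day 25 replicate 1 (157) lay under the KO libraries of day 30. On the log2 scale RGMB rose by 2.00 in OE against KO at day 25 (SE 0.308, adjusted p = 0.0439, limma) and by 1.39 over both days (SE 0.218, adjusted p = 0.0121, limma). KO against WT gave log2 fold changes of -1.49 at day 25 (SE 0.308, adjusted p = 0.171, limma) and -1.06 over both days (SE 0.218, adjusted p = 0.13, limma), which did not pass. Between OE and WT the value over both days was 0.33 (adjusted p = 0.798, limma). At day 30 alone OE against KO gave 0.78 (SE 0.308, adjusted p = 0.424, limma). The call over both days was lost without OE day 25 replicate 2 (adjusted p = 0.063, limma) or without OE day 30 replicate 2 (adjusted p = 0.0712, limma), with library weights (adjusted p = 0.0599, limma) and when only the compared libraries were fitted (adjusted p = 0.0531, limma). The day 25 call was lost in both of those fits too (adjusted p = 0.121 and 0.205, limma), and without OE day 25 replicate 1 (adjusted p = 0.22, limma) or replicate 2 (adjusted p = 0.251, limma). With single libraries left out, the log2 fold change of RGMB for KO against WT over both days ran from -1.26 to -0.86.

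RGMA (ENSG00000182175, chromosome 15, 93035271 to 93089211) had values of 282 and 130 in WT, 104 and 114 in KO and 204 and 314 in OE at day 25. At day 30 the values were 116 and 153 in WT, 170 and 102 in KO and 195 and 209 in OE. Its 4 OE libraries also lay above all 4 KO libraries, but the 4 WT libraries overlapped both. The log2 fold change for OE against KO was 1.21 at day 25 (SE 0.377, adjusted p = 0.132, limma) and 0.91 over both days (SE 0.267, adjusted p = 0.0855, limma), and neither passed. Over both days, 3 members (RGMA, RGMB and SMAD4) had all OE libraries above all KO libraries (5.17% of all genes), and 1 member, NOG, had all of them below (4.51%). NEO1, the receptor of both RGM proteins, ran from 252 to 481 over the 12 libraries and had a log2 fold change of -0.07 for OE against KO (adjusted p = 0.875, limma).

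BAMBI (ENSG00000095739, chromosome 10, 28677510 to 28682932), a decoy receptor that resembles type I receptors but lacks their kinase, was lower in OE than in KO at both days. Its values at day 25 were 154 and 130 in WT, 144 and 298 in KO and 66 and 96 in OE, and at day 30 they were 124 and 85 in WT, 203 and 208 in KO and 156 and 84 in OE. Within each day both OE libraries lay below both KO libraries, and WT overlapped KO at day 25 and OE at day 30. OE lay wholly below KO in 2126 of the 9497 genes at day 25 and in 1761 at day 30. OE against KO over both days gave -1.10 on the log2 scale (SE 0.278, adjusted p = 0.0563, limma), just outside the threshold, and KO against WT gave 0.77 (SE 0.278, adjusted p = 0.245, limma). With single libraries left out, the log2 fold change of BAMBI for OE against KO over both days ran from -1.36 to -0.84.

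Among the secreted antagonists, NOG and FSTL1 fell in OE against KO. NOG (ENSG00000183691, chromosome 17, 56593699 to 56595611) encodes noggin, which binds BMPs outside the cell and blocks their receptor sites. It had values of 34 and 36 in WT, 76 and 51 in KO and 16 and 37 in OE at day 25. At day 30 it had values of 42 and 27 in WT, 48 and 82 in KO and 26 and 24 in OE. The 4 KO libraries (48 to 82) lay above all 4 WT libraries (27 to 42) and all 4 OE libraries (16 to 37), and WT and OE overlapped. NOG was the 1 member with all KO libraries above all WT libraries, where 2.74% of all genes were, and no member had all KO libraries below all WT libraries (3.14%). NOG differed between OE and KO by -1.32 at day 25 (adjusted p = 0.16, limma), -1.30 at day 30 (adjusted p = 0.398, limma) and -1.31 over both days (SE 0.317, adjusted p = 0.0496, limma), and only the last passed. KO exceeded WT over both days by 0.85 on the log2 scale (SE 0.317, adjusted p = 0.255, limma). The call of NOG held without KO day 30 replicate 1 and was lost on leaving out any of the other 7 KO or OE libraries, with an adjusted p from 0.0559 without KO day 25 replicate 2 to 0.189 without OE day 30 replicate 2 (limma). It was also lost with library weights (adjusted p = 0.175, limma) and with only the compared libraries (adjusted p = 0.136, limma).

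FSTL1 (ENSG00000163430, chromosome 3, 120392293 to 120450993) encodes a secreted glycoprotein of the follistatin family that can bind BMPs. It had values of 1128 and 1128 in WT, 946 and 1332 in KO and 510 and 516 in OE at day 25. The day 30 values were 1044 and 922 in WT, 822 and 1466 in KO and 850 and 385 in OE. WT and KO overlapped at both days, the OE libraries lay below both at day 25, and at day 30 OE replicate 1 (850) lay within the KO range. FSTL1 fell by 1.03 on the log2 scale in OE against KO over both days (SE 0.243, adjusted p = 0.0441, limma). KO against WT gave 0.08 (adjusted p = 0.896, limma). OE against WT gave -0.96 over both days (SE 0.243, adjusted p = 0.205, limma) and -1.14 at day 25 (adjusted p = 1, limma), and did not pass, although all 4 OE libraries lay below all 4 WT libraries, as they did for 3 members (FSTL1, BMPR1A and BMPR2) and 4.34% of all genes. The call was lost without KO day 25 replicate 2 (0.0951), OE day 25 replicate 1 (0.113), OE day 25 replicate 2 (0.156), KO day 30 replicate 2 (0.128) or OE day 30 replicate 2 (0.165), with library weights (0.144) and with only the compared libraries (0.138), each an adjusted p from limma.

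The other 4 antagonists and modulators were not called in any comparison. TWSG1, twisted gastrulation, which forms complexes with BMPs and chordin, ran from 38 to 105 and had a log2 fold change of -0.56 for KO against WT (adjusted p = 0.321, limma) and 0.67 for OE against KO (adjusted p = 0.154, limma). FSTL3, which binds activin, ran from 11 to 55, and FSTL4 and FSTL5 ran from 15 to 68 and from 50 to 110. FSTL3, FSTL4 and FSTL5 lay between -0.45 and 0.30 for KO against WT and between -0.36 and 0.24 for OE against KO on the log2 scale.

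**Figure D2:**
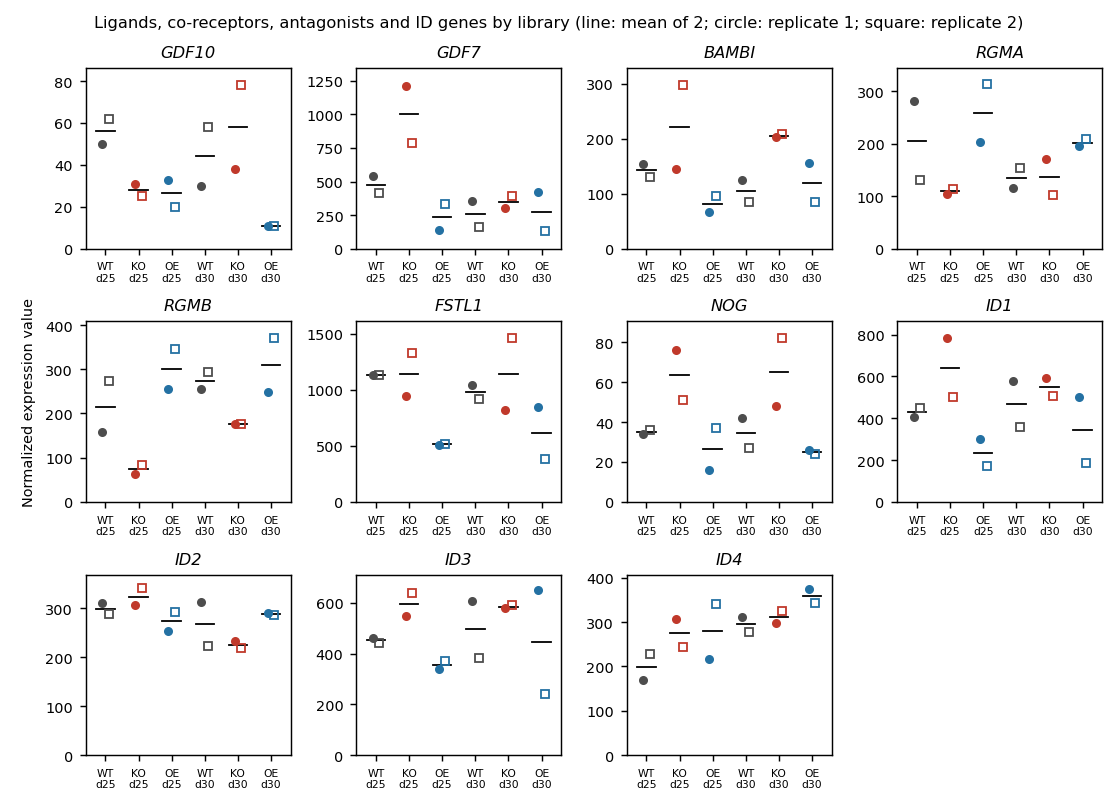
Normalized expression value (vertical axis, from 0) of GDF10, GDF7, BAMBI, RGMA, RGMB, FSTL1, NOG and the 4 ID genes in each library by genotype and day; circles are replicate 1, squares replicate 2, lines the mean of 2. In the NOG panel the 4 KO libraries sit between 48 and 82, above all others, and in the RGMB panel the 4 KO libraries sit between 64 and 176, below all OE libraries.

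Among the ligands, GDF7 and GDF10 were those that passed the unadjusted rule between OE and KO. GDF7 (ENSG00000143869, chromosome 2, 20667144 to 20679243), a BMP-class ligand known from the roof plate, had values of 542 and 411 in WT, 1215 and 789 in KO and 140 and 331 in OE at day 25. At day 30 its values were 358 and 158 in WT, 306 and 390 in KO and 420 and 128 in OE. The 3 genotypes did not overlap at day 25, with KO highest and OE lowest, and overlapped at day 30. Of the 9497 genes, 1836 had KO wholly above WT at day 25, 2126 OE wholly below KO and 1864 OE wholly below WT. OE against KO gave log2 fold changes of -2.18 at day 25 (SE 0.56, adjusted p = 0.0903, limma), -0.57 at day 30 (adjusted p = 0.688, limma) and -1.38 over both days (SE 0.396, adjusted p = 0.0812, limma). KO exceeded WT over both days by 0.79 (SE 0.396, adjusted p = 0.36, limma). The difference of the KO effect between the days was -0.51 on the log2 scale and did not pass (adjusted p = 0.906, limma).

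GDF10 (ENSG00000266524, chromosome 10, 47300197 to 47313577), a ligand related to BMP3, lay near the lower limit of the tables. It had values of 50 and 62 in WT, 31 and 25 in KO and 33 and 20 in OE at day 25. At day 30 the values were 30 and 58 in WT, 38 and 78 in KO and 11 and 11 in OE. Both OE libraries of day 30 were at 11, the lowest value in the files. The log2 fold change for OE against KO was -2.21 at day 30 (SE 0.452, adjusted p = 0.121, limma) and -0.11 at day 25 (adjusted p = 0.931, limma). OE against WT gave -1.83 at day 30 (adjusted p = 0.489, limma) and -1.46 over both days (SE 0.32, adjusted p = 0.141, limma), the largest absolute difference of a member between OE and WT over both days. None of these passed the threshold, but with library weights GDF10 was called lower in OE than in WT at day 30 (adjusted p = 0.0344, limma) and over both days (adjusted p = 0.0113, limma), and with only the compared libraries over both days (adjusted p = 0.0379, limma). KO against WT was -0.97 at day 25 and 0.38 at day 30, a difference of 1.35 between the days (adjusted p = 0.802, limma).

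BMP7, whose protein was also in the patterning medium of every group, had transcript values of 308 and 237 in WT, 116 and 318 in KO and 243 and 116 in OE at day 25. At day 30 it had values of 314 and 213 in WT, 158 and 504 in KO and 172 and 167 in OE. It was shown for that reason, a choice made after its values were seen. KO replicates lay more than 2-fold apart at both days and spanned WT and OE at day 25. On the log2 scale the difference was -0.18 for KO against WT (adjusted p = 0.847, limma) and -0.46 for OE against KO (adjusted p = 0.521, limma) over both days. GDF11, an activin-class ligand that acts through SMAD2 and SMAD3, ran from 210 to 340, with log2 fold changes of 0.15 and -0.24.

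**Figure D3:**
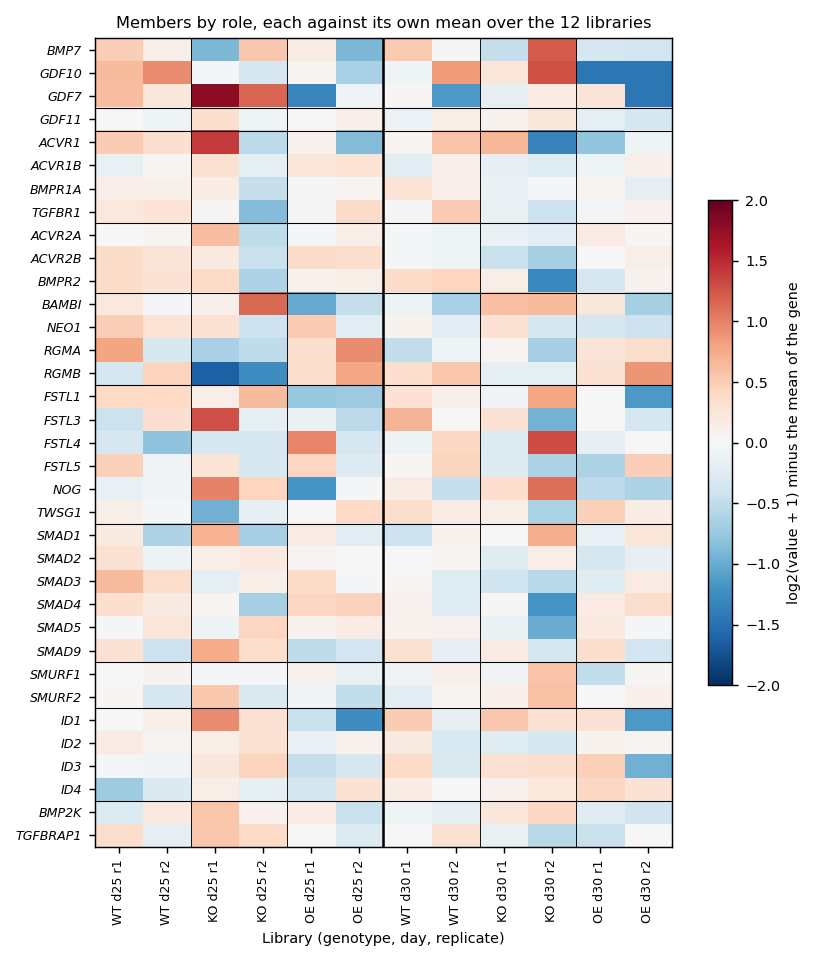
Heat map of log2(value + 1) of each member (rows, by role) in each of the 12 libraries (columns, by day and genotype), relative to its own mean over the libraries; red is above and blue below that mean, from -2 to 2 on the log2 scale. RGMB is lowest in the KO libraries of day 25 (64 and 84), and KO day 30 replicate 2 differs from its replicate in many rows.

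None of the receptors was called, and over both days none differed 2-fold between KO and WT or between OE and KO. For KO against WT over both days the 4 type I receptors lay between -0.59 (TGFBR1) and -0.01 (ACVR1B) on the log2 scale and the 3 type II receptors between -0.71 (BMPR2) and -0.04 (ACVR2A), all 4 and all 3 below 0. For OE against KO 3 of 4 type I and 3 of 3 type II receptors lay above 0. ACVR2B, which binds activins and related GDFs, came nearest to the threshold, at 0.55 on the log2 scale for OE against KO (SE 0.148, adjusted p = 0.0685, limma) and -0.47 for KO against WT (SE 0.148, adjusted p = 0.211, limma). TGFBR1, the type I receptor of TGF-beta, had -0.59 for KO against WT (SE 0.204, adjusted p = 0.234, limma) and 0.47 for OE against KO (adjusted p = 0.206, limma).

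BMPR2, the type II receptor for BMPs, had values of 300 and 150 in KO at day 25 and 252 and 93 in KO at day 30, while its WT libraries ran from 282 to 308 and its OE libraries from 182 to 249. The low values in KO were those of replicate 2 at both days. KO against WT gave -0.71 on the log2 scale (SE 0.296, adjusted p = 0.293, limma). BMPR1A, the main BMP type I receptor, ran from 122 to 203 over the 12 libraries with a log2 fold change of -0.28 (adjusted p = 0.451, limma). ACVR1, another BMP type I receptor, ran from 12 to 86, and its KO replicates lay far apart at both days (86 and 22, then 51 and 12).

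**Figure D4:**
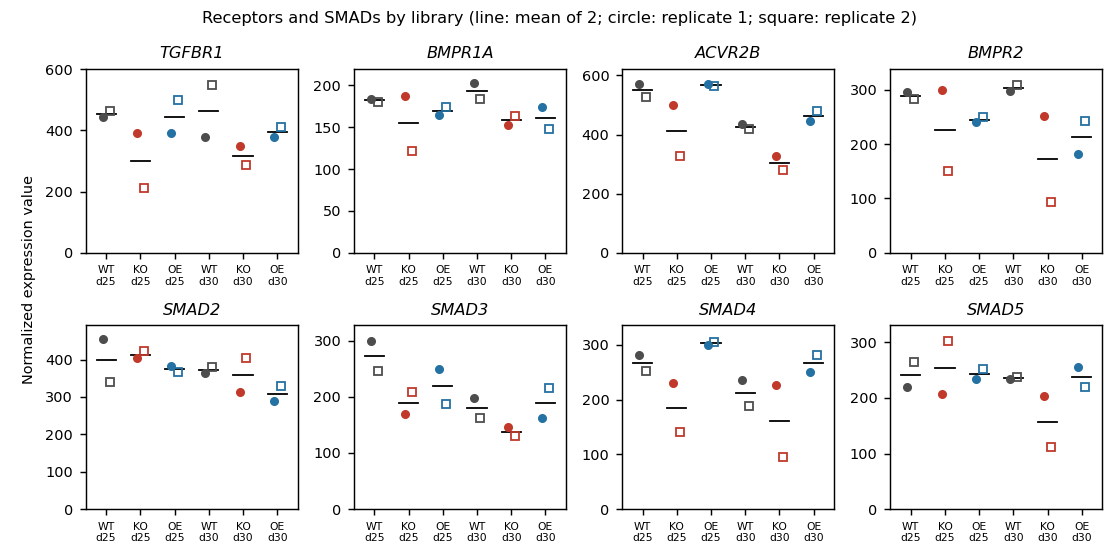
Normalized expression value (vertical axis, from 0) of 4 receptors and 4 SMADs in each library by genotype and day; circles are replicate 1, squares replicate 2, lines the mean of 2. The lowest BMPR2 (93), SMAD4 (96) and SMAD5 (112) values all belong to KO day 30 replicate 2.

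No SMAD was called either. SMAD4, the shared partner of both branches, had values of 281 and 252 in WT, 230 and 140 in KO and 300 and 306 in OE at day 25. The day 30 values were 235 and 188 in WT, 226 and 96 in KO and 250 and 282 in OE. All 4 OE libraries lay above all 4 KO libraries, a difference of 0.80 on the log2 scale (SE 0.254, adjusted p = 0.106, limma), and WT overlapped KO. Of the TGF-beta and activin branch, SMAD3 differed by -0.45 between KO and WT on the log2 scale (SE 0.177, adjusted p = 0.27, limma), and SMAD2 by -0.0005 (SE 0.145). Of the BMP branch, SMAD1, SMAD5 and SMAD9 lay at 0.39, -0.29 and 0.21 for KO against WT and at -0.18, 0.30 and -0.45 for OE against KO. With KO day 30 replicate 1 left out, so that replicate 2 alone stood for KO and was assumed to vary like the other groups, BMPR2, SMAD4 and SMAD5 were called lower in KO than in WT at day 30, 3 of 35 members, in a fit that called 1078 of the 9497 genes. The ubiquitin ligases SMURF1 and SMURF2, which target SMADs and receptors for degradation, ran from 70 to 146 and from 55 to 118. Their log2 fold changes were 0.08 and 0.36 for KO against WT and -0.24 and -0.35 for OE against KO.

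ID1 to ID4 encode helix-loop-helix proteins without a DNA-binding region, which hold proneural factors inactive. ID1 (ENSG00000125968, chromosome 20, 31605283 to 31606515) had values of 408 and 448 in WT, 784 and 500 in KO and 300 and 172 in OE at day 25. At day 30 the values were 578 and 356 in WT, 592 and 505 in KO and 500 and 184 in OE. At day 25 the 3 genotypes did not overlap, with KO highest and OE lowest, and at day 30 OE lay below KO while WT overlapped both. Pairwise, KO lay wholly above WT at day 25 in 1836 of the 9497 genes, and OE wholly below KO in 2126 (1761 at day 30). For ID1, OE against KO gave log2 fold changes of -1.46 at day 25 (SE 0.433, adjusted p = 0.119, limma), -0.85 at day 30 (adjusted p = 0.479, limma) and -1.15 over both days (SE 0.306, adjusted p = 0.066, limma), while KO against WT gave 0.41 (SE 0.306, adjusted p = 0.531, limma). With single libraries left out, the log2 fold change of ID1 for OE against KO over both days ran from -1.51 to -0.79.

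ID3 (chromosome 1, 23557926 to 23559501) had values of 462 and 442 in WT, 547 and 640 in KO and 338 and 372 in OE at day 25. At day 30 it had values of 608 and 382 in WT, 578 and 592 in KO and 650 and 241 in OE. Its order at day 25 was that of ID1, and at day 30 the OE replicates spanned the other groups. Its log2 fold change over both days was 0.33 for KO against WT (adjusted p = 0.548, limma) and -0.65 for OE against KO (SE 0.261, adjusted p = 0.179, limma). ID2 (chromosome 2, 8678845 to 8684461) had values of 310 and 288 in WT, 306 and 342 in KO and 254 and 293 in OE at day 25. The day 30 values were 314 and 224 in WT, 234 and 218 in KO and 291 and 287 in OE. ID4 (chromosome 6, 19837370 to 19842197) had values of 170 and 229 in WT, 308 and 244 in KO and 217 and 341 in OE at day 25. At day 30 the values were 312 and 278 in WT, 298 and 325 in KO and 374 and 344 in OE. At day 25 WT overlapped both KO and OE in ID2, while OE lay below KO, and in ID4 the OE libraries overlapped the other groups. Both OE libraries of day 30 lay above both KO libraries in ID2 and in ID4, the reverse of the order of ID1 (1774 of the 9497 genes had OE wholly above KO). Over both days their log2 fold changes for OE against KO were 0.05 (SE 0.149) and 0.10 (SE 0.179).

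BMP2K, a kinase named for its induction by BMP2, and TGFBRAP1, a TGF-beta receptor-associated protein, were not called in any comparison. BMP2K had log2 fold changes of 0.41 for KO against WT (adjusted p = 0.38, limma) and -0.55 for OE against KO (adjusted p = 0.173, limma), and TGFBRAP1 of -0.06 and -0.24. Between day 25 and day 30, averaged over the genotypes, no member was called, nor was any of the 9497 genes (0%, limma), while 5 members had an unadjusted p under 0.05 at any fold (11.3% of all genes). Of these RGMB and ID4 were higher at day 30 by 0.56 and 0.39 on the log2 scale, and GDF7, SMAD3 and ACVR2B were lower (-0.79, -0.42 and -0.36), with adjusted p values from 0.324 for RGMB to 0.409 for GDF7 by limma. No difference of the KO effect between the days passed for a member (lowest adjusted p = 0.802, limma) or for any gene (0%). These differences ran from -1.26 to 1.35 on the log2 scale over the members, and 0 members reached an unadjusted p under 0.05, as 5.63% of all genes did.

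A list of 59 further pathway genes outside the naming rule (processing enzymes, ligand traps, SMAD partners and ubiquitin regulators) had 40 in the tables. None was called for KO against WT (0.0211% of all genes over both days). In OE against KO over both days 1 of the 40 was called, where 2.22% of all genes were, so the count was near that share. It was PCSK6, a proprotein convertase that cleaves TGF-beta family precursors, and it fell. PCSK6 had values of 81 and 66 in WT, 208 and 148 in KO and 30 and 43 in OE at day 25. At day 30 it had values of 112 and 99 in WT, 207 and 378 in KO and 98 and 36 in OE. All 4 KO libraries lay above all WT and all OE libraries, and the log2 fold change was -2.24 for OE against KO (SE 0.316, adjusted p = 0.00907, limma) and 1.33 for KO against WT (SE 0.316, adjusted p = 0.176, limma). The median log2 fold change of the 40 genes was -0.11 for KO against WT and 0.04 for OE against KO.

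Of 24 genes known to respond to BMP or TGF-beta, 11 were in the tables, with medians of -0.24 and -0.39 on the log2 scale for the same comparisons. The 1 called was MSX1, a homeobox BMP target, which fell by 1.47 on the log2 scale in OE against KO over both days (SE 0.34, adjusted p = 0.0424, limma), where 2.22% of all genes were called. MSX1 had values of 169 and 132 in WT, 484 and 732 in KO and 135 and 116 in OE at day 25. The day 30 values were 200 and 112 in WT, 310 and 528 in KO and 438 and 140 in OE. All 4 KO libraries lay above all 4 WT libraries (log2 fold change 1.71, SE 0.34, adjusted p = 0.13, limma), and OE day 30 replicate 1 (438) lay among the KO libraries.

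Markers of other cell types were examined beside these values. Of 13 roof plate markers 12 were in the tables, BAMBI, itself a member, and MSX1 among them. The study had named LMX1B, MSX1, WNT8B and RSPO2 as changed in KO ThOs at day 25, and the list was chosen with such results known. For KO against WT over both days none of the 12 was called, with 9 above 0 and 3 below. All 12 had an unadjusted p under 0.05 at any fold by limma, as 1441 of the 9497 genes did. In OE against KO over both days 7 of the 12 did not pass. Of the rest 3 fell (1.17% of all genes), LMX1B (log2 fold change -2.61), WNT1 (-2.48) and MSX1, and 2 rose (1.05%), WNT8B (1.74) and RSPO2 (3.25). The summed level of the 12 ran from 3984 to 4426 in WT, 4238 to 5388 in KO and 3525 to 4448 in OE at day 25, and from 3561 to 3584, 5070 to 12703 and 3360 to 3896 at day 30. The 12703, of KO day 30 replicate 1, held a ZIC1 value of 9910, the highest in the files. Without ZIC1 the sums of the other 11 were 2572 to 2683 in WT, 2716 to 2770 in KO and 2265 to 3365 in OE at day 25, and 1957 to 2172, 2793 to 3188 and 1948 to 2153 at day 30. Of 10 mesenchyme markers 3 were in the tables (COL1A2, PDGFRA and PDGFRB), none called. Their summed levels at day 25 were 418 to 502 in WT, 504 to 1120 in KO and 194 to 341 in OE. In the same order they were 283 to 420, 309 to 602 and 182 to 410 at day 30. Much of the KO sum at day 25 was COL1A2, with 352 and 734 in KO beside 198 and 195 in WT. Averaged across the days, COL1A2 alone was higher in KO than in WT, by 1.17 on the log2 scale. PDGFRA and PDGFRB were lower, and the median of the 3 was -0.06. In OE against KO over both days, where 2.22% of all genes were called, 1 of 7 choroid plexus markers measured was called as lower (CLDN1, -3.20) and 1 of 7 neural progenitor markers as higher (SOX2, 1.27), while none of 10 neuron or 6 thalamus markers was called. Of the 7 choroid plexus markers 4 lay above 0 and 3 below, with a median of 0.05, so CLDN1 did not stand for its list. Of the 7 neural progenitor markers 5 lay above 0 and 2 below (median 0.48). At day 25 alone, where RGMB and 0.274% of all genes were called, 1 of 10 neuron markers was called. It was GAP43, which fell by 1.24 on the log2 scale (SE 0.202, adjusted p = 0.0439, limma). Of the 10 neuron markers 5 lay above 0 and 5 below at that day, with a median of -0.03. Also called then were 1 choroid plexus marker as lower and 2 roof plate markers, 1 higher and 1 lower. The part of these cell types in the values of GDF7, BAMBI, NOG, RGMB, FSTL1 and ID1 was not tested.

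RefSeq promoter windows of 300 bases, from 250 before the gene start to 50 after it, were found for 32 of the 35 members, and not for BMP7, NOG and BMP2K. Letters for 3 motifs were searched, each of which reads the same on both strands. The AP-1 letters TGANTCA occurred in 2 of 32 members (6.25%), RGMB and SMAD1, against 7.76% of all 27305 promoters and 3.86% of the 7817 for genes in the tables. The CRE-like letters TGACGTCA occurred in FSTL4 alone (3.13%, against 1.98% and 3.63%). The BMP GC box letters GGCGCC occurred in 13 members (40.6%, against 19.0% and 31.9%), GDF7, GDF10, RGMA, BMPR2 and SMAD4 among them besides FSTL1 and BAMBI. The windows of ID1 to ID4 held none of the 3. A match of letters is a description of the window and not of binding.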

How the data were processed

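Per the labels and the study's methods, total RNA of 3 pooled ThOs per library was extracted with TRIzol and sequenced after ribosomal RNA removal with a stranded kit. The authors deposited 1 table per library of 9497 genes giving identifiers, positions and symbols with a normalized expression score rounded to whole numbers. The submitters' processing notes name bcl2fastq, Bowtie2 and RSEM. The normalization is not given in the sources used here. All 12 libraries shared 1 median, so a change of total RNA or of all genes together cannot appear. The notes name build hg19, but all 9386 symbols matched to RefSeq on the same chromosome overlapped their GRCh38 position, so positions are given as GRCh38.

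From these scores, log2(value + 1) was fitted with limma 3.58.1 (R 4.3.3), 1 mean per group, 6 residual and 5.29 prior degrees of freedom and an intensity trend, since a normalized score allows no count model. A low-value filter (at least 1 in 2 libraries) removed 0 genes, so all 35 members were tested. The 3 pairs of genotypes were compared at each day and averaged over the days, alongside day 30 against day 25, and the difference of the KO effect between the days, the last called at an adjusted p under 0.05 alone. All values "over both days" are the mean of the 2 daily contrasts. P-values are two-sided. JUN was tested by an exact permutation test. Alternatives were other pseudocounts, filters and scalings, the replicate number as a block, library weights, an unadjusted rule, fits to the compared libraries alone, and omission of single libraries.

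The members and lists were chosen with earlier results of these data known. All members were named by role. Values in every library are given for JUN, the ID genes, members called in any contrast or passing the unadjusted rule in KO against WT or OE against KO, and, chosen after their values were seen, BMP7 and SMAD4, with BMPR2 and ACVR1 in part. Outside lists are given by counts, with values for called genes. In simulations of 9497 genes with 200 changed, normal noise had 1 SD per group, the same for every gene. Log2 changes of 1 and 2 were recovered in 37.4% and 99.5% of cases for OE against KO over both days. For KO against WT over both days they were recovered in 36.2% and 99.9%, and for OE against KO at day 25 in 0.6% and 88.3%. In the data the spread differed from gene to gene, so these shares describe the simulated setting and not the power here. The 11 ATAC-seq and CUT&Tag samples were not analysed here.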

Additional observations from a re-analysis of the deposited data

How the results depend on the processing

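Omitting the filter and median centring repeated the same fit, since 0 genes had been filtered and all libraries shared 1 median, and are not counted here. Over 22 fold changes of members, 270 alternative values kept their direction, with 228 on the same side of the threshold, 26 calls lost and 16 gained. Pseudocounts of 0.1 and 5 changed no count of called members, nor did quantile normalization of libraries that already shared nearly 1 distribution. A mean value of at least 50 kept 30 members, without NOG, and 2 (RGMB and FSTL1) were called for OE against KO over both days. Counts of called members moved as follows. With library weights, 0 members were called for OE against KO at day 25 and 0 over both days, and 1 (GDF10) for OE against WT at day 30 and 1 over both days. Fitting only the libraries compared gave 0 for OE against KO at day 25, 0 over both days and 1 (GDF10) for OE against WT over both days. The unadjusted rule gave 1 for KO against WT at day 25 and 1 over both days, 7, 2 and 7 for OE against KO at day 25, day 30 and over both days, and 2, 1 and 1 for OE against WT. Leaving out 1 library at a time gave 0 to 3 called members for KO against WT at day 30, 0 to 2 over both days, 0 to 2 for OE against KO at day 25, 0 to 6 at day 30 and 0 to 9 over both days. The count over both days for OE against KO was 9 without KO day 30 replicate 1, 6 without OE day 30 replicate 1, 1 on removing KO replicate 2 of either day or OE day 25 replicate 1, and 0 on removing OE replicate 2 of either day. Over both days for OE against KO, limma's adjusted p spanned 0.00456 to 0.0712 for RGMB, 0.00718 to 0.165 for FSTL1 and 0.0117 to 0.189 for NOG. JUN, KO against WT, gave log2 differences of 0.605 to 0.887 and an exact permutation p of 0.0571 with any 1 library left out, the smallest that 3 against 4 allows.

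Replicate numbers did not pair the libraries, since 1 of 15 correlations of same-numbered deviations exceeded 0.1 (range -0.214 to 0.262). With the replicate number as a block, 2 members were called for OE against KO over both days, RGMB and ID1 (adjusted p = 0.0387, limma), in place of 3, while FSTL1 (adjusted p = 0.0679) and NOG (0.0788) were not, and RGMB stayed the 1 called at day 25. The cause of these changes was not tested. The unknown read depth limits the precision of low values such as those of GDF10 and NOG.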

Other observations

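Where each library labelled KO stood among the rest differed from library to library. Of the 35 members, 4 lay below and 13 above all 8 WT and OE libraries in KO day 25 replicate 1, 10 below and 9 above in KO day 25 replicate 2, 5 below and 5 above in KO day 30 replicate 1, and 14 below and 11 above in KO day 30 replicate 2. Over all genes the shares were 24.2% below and 23% above, 25% and 23.6%, 9.88% and 10.6%, and 29.1% and 31.1% for the same libraries. NOG was the 1 member above all 8 in all 4 KO libraries (1.28% of all genes). Including NOG, 3 members lay above all 8 in at least 3 KO libraries, the others being BAMBI and BMP2K (8.57%, against 7.62% of all genes). A further 6 lay below all 8 in 3 (17.1%, against 7.76%): TGFBR1, ACVR2A, ACVR2B, RGMA, TWSG1 and SMAD5, of which ACVR2A in KO day 25 replicate 1 and SMAD5 in KO day 25 replicate 2 lay above all 8. ACVR1 lay above all 8 in the first replicate of KO at both days and below all 8 in KO day 30 replicate 2.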
